A study of Phanerodontia chrysosporium with 12 samples.

Results

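A set of 64 gene models of the white-rot fungus Phanerochaete chrysosporium is described here, out of 13602 in the count tables, whose transcripts were high at the start and 1 h after oak extractives and low at 3 h and 6 h. Members were chosen by these values themselves. Levels are CPM, total gene reads per 1000000 of the reads left in a library after 2 dominant gene models were removed. A gene model had to reach a mean of 10 CPM at some time, which 9447 did. Its mean log2(CPM + 2) at 3 h and at 6 h each had to lie at least 1 below the means of T0 and 1 h, and all 6 late libraries had to lie below all 6 early ones. Of the 64 members, 6 had already dropped by 1 or more on this log2 scale at 1 h, so a lowering that starts only after 1 h does not hold for them, and the other 58 lay less than 1 below T0 or above it.

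Oak heartwood is rich in extractives, small compounds, many of them phenolic, that protect the wood against decay fungi. White-rot fungi break down lignin, and in doing so they meet such compounds, which they are known to oxidise, conjugate and export. The amount of a transcript depends on its synthesis and its decay, and RNA sequencing of a whole culture gives that amount relative to all other transcripts. The files list gene models by numeric protein ID and do not pair the IDs with names, so members are given by ID, level, length and time course, and no role is given to any of them. The mycelial label of the samples could not be set against marker genes for the same reason.

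Static cultures of the homokaryotic strain RP78 were grown in 20 ml of minimal medium at 37 °C for 4 days, and an acetone extract of Quercus petraea heartwood was then added to 100 µg/ml from a stock of 200 mg/ml in DMSO. All 12 cultures received the extractives: 3 were harvested at once (T0, the control) and 3 each after 1 h, 3 h and 6 h. Cultures given DMSO alone were not analysed here, so time in culture, DMSO and extractives cannot be told apart in any comparison below. In RNA from whole mycelium, fewer cells of a kind and less of a transcript per cell cannot be told apart either.

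Reads outside the dominant pair ran from 729521 to 8734461 per library at T0 and 1 h, and from 4586896 to 10364009 at 3 h and 6 h. The dominant pair held 4.31% to 65.9% of all gene reads in the 6 early libraries and 3.12% to 18.2% in the 6 late ones. At the shallowest library, 1 h replicate 2, a count of 0 allows a level of up to 4.11 CPM (3 counts, counting error only). The lowest count of any member in an early library was 6 reads, and 8 members had under 10 reads in at least 1 early library.

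Together the members held 1.63%, 1.72% and 1.57% of the reads outside the dominant pair in T0 replicates 1 to 3, and 1.47%, 1.33% and 1.52% at 1 h. They held 0.414%, 0.446% and 0.402% at 3 h and 0.482%, 0.359% and 0.468% at 6 h. The summed share was thus high in all early and low in all late libraries, as the choice of members requires. The early group means were 1.64% ± 0.0759 (SD, n = 3) for T0 and 1.44% ± 0.0966 for 1 h, and the late ones 0.421% ± 0.0229 for 3 h and 0.436% ± 0.0674 for 6 h. The 4 most abundant members carried 27.4% of the members' early reads. Without them the share over the 4 times in order was 1.11% ± 0.0693, 1.13% ± 0.0907, 0.301% ± 0.0310 and 0.304% ± 0.0520. The rule requires the late fall of these other members too. Without the 4, the mean share was not lower at 1 h than at T0.

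**Figure D1:**
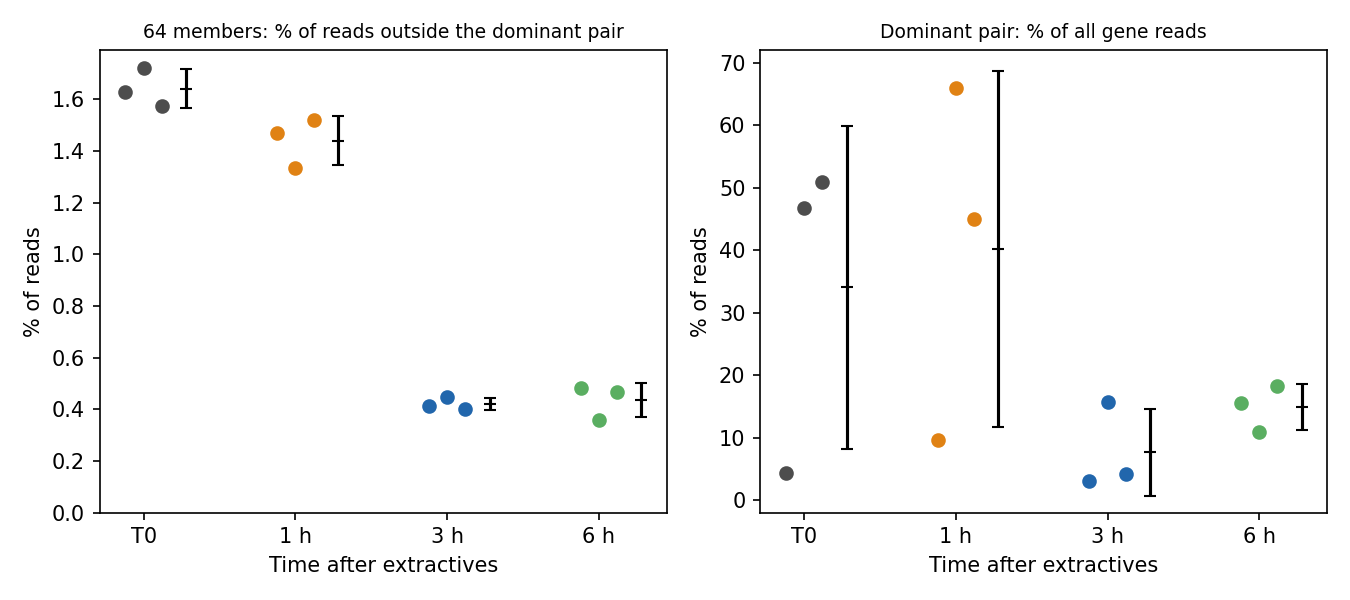
Left, the summed share of the 64 members in the reads outside the dominant pair (%), and right, the share of the dominant pair in all gene reads (%), by time after the extractives. Points are libraries and black marks the mean ± SD of 3. The members' share lies between 1.33% and 1.72% in the early libraries and between 0.359% and 0.482% in the late ones. The share of the dominant pair overlaps between early and late libraries only through replicate 1 of T0 and of 1 h.

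The share of the dominant pair was also higher early than late in its means, and its part in the members' fall was not tested. Over the 4 times in order it was 34.0% ± 25.8, 40.2% ± 28.4, 7.64% ± 6.98 and 14.9% ± 3.74 (SD, n = 3). Of the early libraries, only replicate 1 of T0 (4.31%) and of 1 h (9.61%) lay within the late range. With the pair kept in the total, 12 of the 64 met the rule and 1 other gene model joined them. The median fall over the 64 members was then 1.12 on the log2(CPM + 2) scale, and 39 of 64 fell by 1 or more. The same early-minus-late median over the 9447 gene models went from 0.03 to -0.50. With replicate 1 of T0 and of 1 h as the only early libraries, 49 of the 64 met the rule and 53 other gene models joined them.

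**Figure D2:**
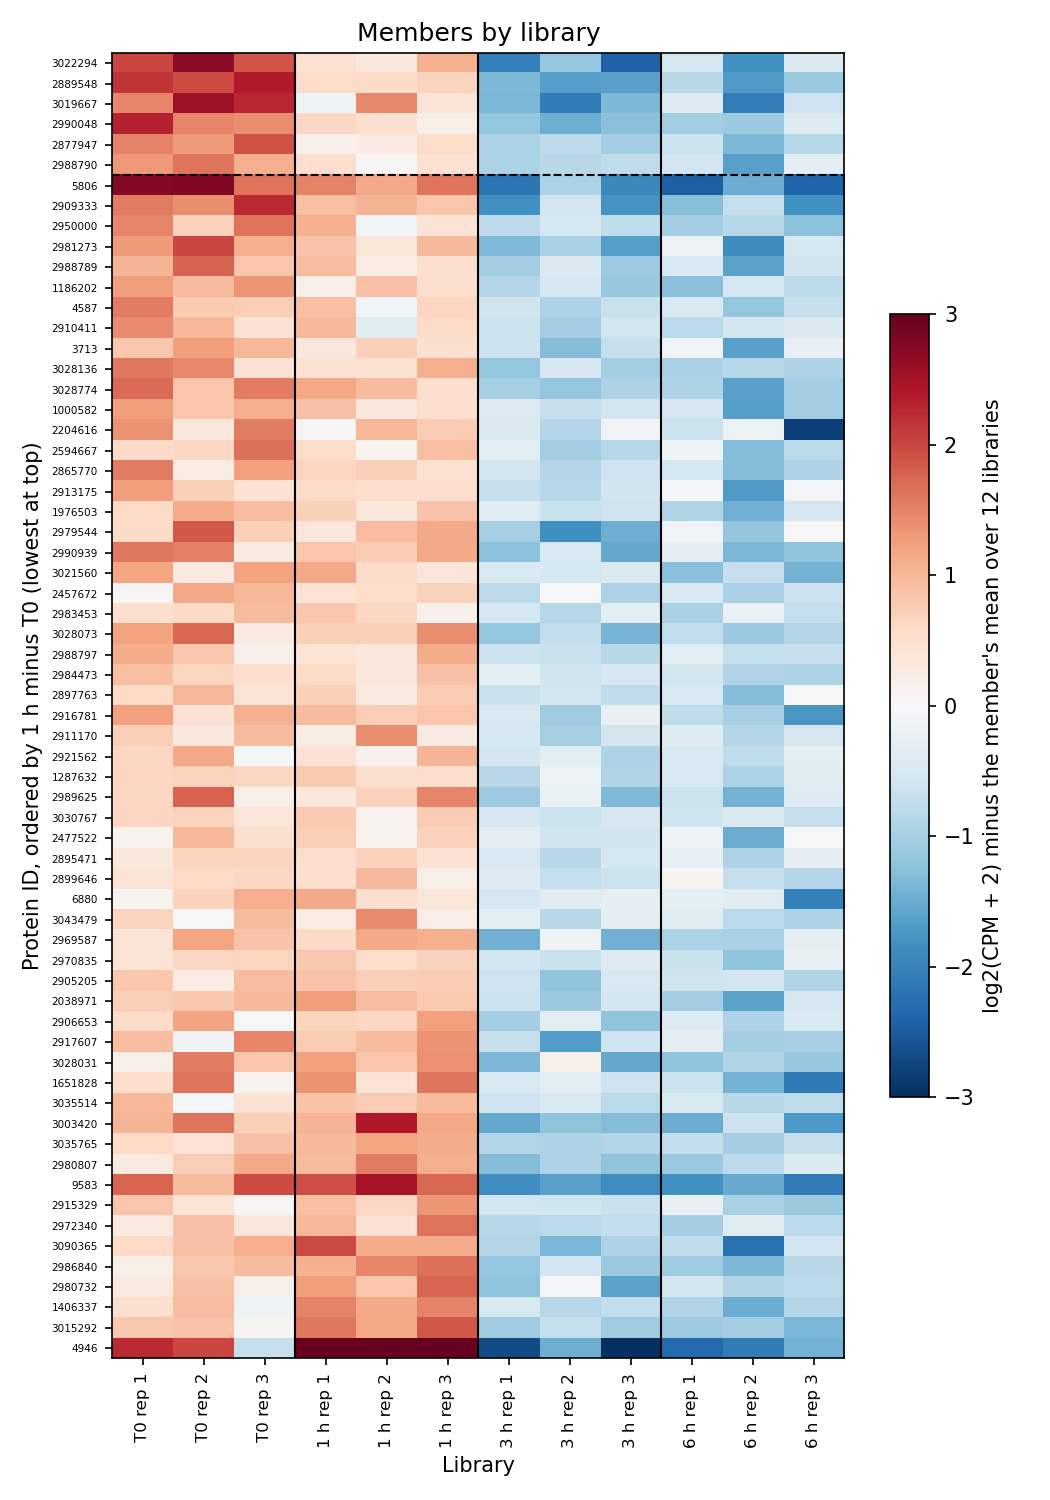
Each row is 1 of the 64 members and each column a library, with colour giving log2(CPM + 2) minus the member's mean over the 12 libraries. Rows run from the lowest to the highest 1 h minus T0 difference, and the dashed line sets off the 6 members already 1 or more below T0 at 1 h; the top rows step down at 1 h and again at 3 h, the middle rows hold from T0 to 1 h, and the bottom rows are highest at 1 h.

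The size of the fall, taken as the mean log2(CPM + 2) of T0 and 1 h minus that of 3 h and 6 h, ranged from 1.04 to 4.52 with a median of 1.69 (quartiles 1.33 and 1.99). The same difference over the 9447 gene models that reached 10 CPM had a median of 0.03 (quartiles -0.29 and 0.33). In mean CPM, all 64 members were at least 2-fold higher early than late, 21 at least 4-fold and 6 at least 8-fold. Those 6 were proteins 4946, 3003420, 5806, 9583, 3019667 and 2889548. The members' fall is what the rule selected, and these values describe it without a test.

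Protein 4946 (357 nt) had the largest fall. It stood at 272, 232 and 34.3 CPM in T0 replicates 1 to 3, at 464, 506 and 864 CPM at 1 h, at 7.14, 19.2 and 2.96 CPM at 3 h and at 9.61, 11.6 and 20.0 CPM at 6 h. All 1 h libraries lay above all T0 libraries, and T0 replicate 3 was far below the other T0 libraries though still above every late one. Its fall was 4.52 on the log2(CPM + 2) scale, or 33.7-fold in mean CPM, and with a pooled within-group SD of 1.03 (log2) it was also the member that varied most between replicates.

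Protein 5806 (324 nt), the shortest member, and protein 9583 (2991 nt) fell next most. Protein 5806 was at 425, 431 and 194 CPM at T0, at 175, 137 and 193 CPM at 1 h, at 12.2, 31.0 and 14.7 CPM at 3 h and at 9.61, 20.9 and 10.3 CPM at 6 h, a fall of 3.79 (log2). Its lowest early library was 4.43-fold above its highest late one. Protein 9583 was at 440.3, 256 and 517 CPM at T0, at 502, 736 and 438 CPM at 1 h, at 34.4, 40.8 and 34.4 CPM at 3 h and at 36.0, 44.6 and 28.8 CPM at 6 h. It had the widest clear space of all members, its lowest early library being 5.73-fold above its highest late one. Its late level was equal at both times, 36.5 ± 3.66 CPM at 3 h and 36.5 ± 7.89 CPM at 6 h (SD, n = 3).

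Protein 3003420 was low by comparison, and its fold rests on few late reads. This gene model (423 nt), chosen for mention with its values known, went from 12.8 ± 4.73 CPM at T0 and 19.0 ± 12.1 CPM at 1 h to 0.625 ± 0.301 CPM after 3 h and 0.883 ± 1.22 CPM after 6 h (SD, n = 3). Its late counts were 3, 4 and 7 reads at 3 h and 2, 11 and 0 reads at 6 h. It was 1 of 3 members with a count of 0 in a late library.

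The most abundant members were proteins 3022294, 3713, 2983453 and 2950000. Protein 3022294 (801 nt) led at T0 with 1489.7, 2385 and 1368 CPM, then stood at 502, 459 and 772 CPM at 1 h, at 86.7, 164 and 66.1 CPM at 3 h and at 253, 102 and 269 CPM at 6 h. It stepped down at 1 h and again at 3 h, and its T0, 1 h and late libraries did not overlap. Per length it was also the most abundant member, at 1451 early CPM per kb, ahead of protein 3713 at 1193 and protein 4946 at 1108.

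Protein 3713 (921 nt) was at 1107, 1510.5 and 1264 CPM at T0, 795, 1036 and 882 CPM at 1 h, 399.7, 253 and 389 CPM at 3 h and 594, 203 and 534 CPM at 6 h. Its 6 h libraries spread widely, from below every 3 h library to above every one of them. Protein 2983453 (1810 nt) held its level over the first hour, with 907, 969.9 and 1263 CPM at T0 and 1130.4, 1006 and 709 CPM at 1 h, and then stood at 452, 356 and 527 CPM at 3 h and 331, 569 and 394 CPM at 6 h. Its fall of 1.19 (log2) was among the smaller of the set.

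Protein 2950000 (1849 nt) was at 1359, 789 and 1518 CPM at T0, at 1023, 466 and 652 CPM at 1 h, at 282, 339 and 289 CPM at 3 h and at 240.3, 270.2 and 207 CPM at 6 h. All its 6 h libraries lay below all its 3 h libraries. The 3 h and 6 h libraries did not overlap, in either direction, in 5 of 64 members, beside 10.0% of the 9447 gene models. Over the set, 39 members had a mean early level of at least 100 CPM, 10 of at least 500 CPM and 9 of under 20 CPM. The median early level was 114 CPM (quartiles 54.2 and 358), beside 46.0 CPM (quartiles 21.0 and 101) for all gene models that reached 10 CPM. The rule asks for an early level above the late one, so it acts on this difference. Late medians of the members were lower than those of the 9447. They were 32.4 beside 45.0 CPM at 3 h, and 36.6 beside 41.8 CPM at 6 h. The added 2 CPM also makes a given fold harder to meet at a low level, and the differences in level were not tested.

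**Figure D3:**
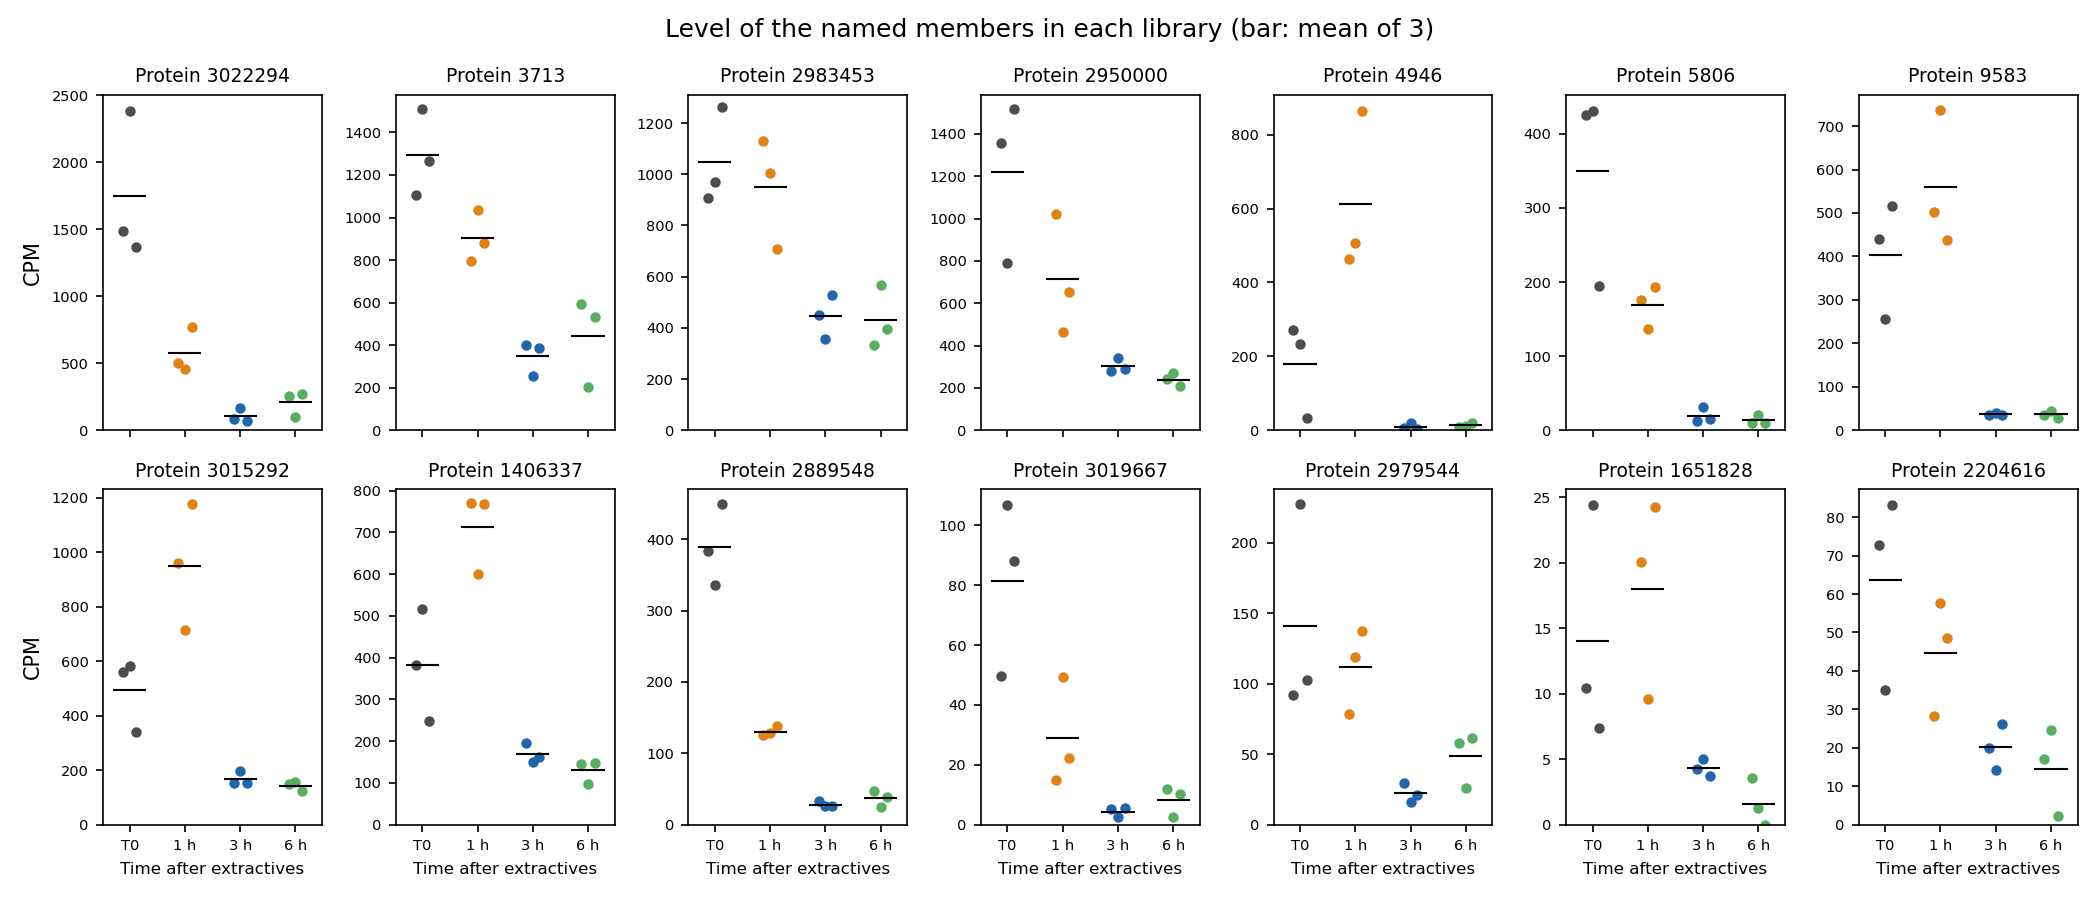
CPM of 14 named members in each library by time after the extractives, with points for libraries and a bar for the mean of 3; each panel has its own linear axis from 0. In every panel all points at 3 h and 6 h lie below all points at T0 and 1 h, while the order of T0 and 1 h differs between members, with protein 4946 highest at 1 h and protein 3022294 highest at T0.

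The rule sets both T0 and 1 h above the late times but not their order. It still limits the first hour, since a gene model whose fall was complete at 1 h could not be a member. The members' share of calls at 1 h is therefore given as a description beside that of all gene models. In the edgeR quasi-likelihood fit of all 12 libraries, with Benjamini-Hochberg adjustment over 11813 gene models, all 64 members passed the filter on low counts. At 1 h against T0, 3 members (4.69%) were called lower at an adjusted p under 0.05, beside 3.15% of all gene models tested, and 0 were called higher, beside 3.10%. The members' share of calls was thus near the background. The median log2 fold change of the members was -0.01, with a range from -1.55 to 1.84, beside 0.01 over all gene models. At an unadjusted p under 0.05 there were 14 members and 2610 of all gene models.

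The members called lower at 1 h were proteins 2889548, 2990048 and 2877947. Protein 2889548 (702 nt) was at 384, 336 and 449 CPM at T0, at 125, 129 and 137 CPM at 1 h, at 32.4, 25.7 and 26.0 CPM at 3 h and at 46.9, 24.98 and 38.4 CPM at 6 h. Its replicates were close together at each time, and the T0, 1 h and late libraries formed separate steps. The edgeR estimate for 1 h was -1.49 in log2 (SE 0.24) with a Benjamini-Hochberg p of 0.00176, which stayed under 0.05 in all 21 alternatives, at up to 0.0181.

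Protein 2990048 (1902 nt) went from 258, 144 and 138 CPM at T0 to 79.0, 71.3 and 57.5 CPM at 1 h, 21.8, 17.2 and 20.0 CPM at 3 h and 23.6, 22.5 and 38.0 CPM at 6 h. The edgeR log2 estimate for 1 h was -1.30 (SE 0.28), adjusted p 0.0116. That call was lost without T0 replicate 1 (adjusted p 0.0709) or 1 h replicate 3 (0.0657), within a range of 0.000309 to 0.0709 over 21 edgeR, DESeq2 and limma-voom alternatives. Protein 2877947 (1131 nt) went from 220.3, 192 and 299 CPM at T0 to 85.7, 93.2 and 115 CPM at 1 h, 39.2, 44.0 and 36.4 CPM at 3 h and 48.8, 29.5 and 42.4 CPM at 6 h. Here edgeR gave -1.18 in log2 (SE 0.26) and an adjusted p of 0.0146. Its call was lost without T0 replicate 3 (0.0653) or 1 h replicate 1 (0.0818), within a range of 0.000806 to 0.0818 over the 21 alternatives.

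All 3 belonged to the 6 members already at least 1 below T0 at 1 h by mean log2(CPM + 2). The other members of the 6 were proteins 3022294, 3019667 and 2988790. For protein 3022294 the edgeR log2 estimate was -1.53 (SE 0.45), adjusted p 0.0557, and 5 of 21 alternatives brought it under 0.05 (range 0.0104 to 0.186). Protein 3019667 (1501 nt) went from 49.6, 107 and 88.1 CPM at T0 to 15.02, 49.3 and 22.4 CPM at 1 h, 5.21, 2.40 and 5.41 CPM at 3 h and 12.1, 2.48 and 10.1 CPM at 6 h. At 1 h replicate 2 it nearly reached the lowest T0 library. Protein 2988790 (903 nt) lay right at the line, with a 1 h minus T0 difference of -1.001. In these 6 members, between 44.0% and 49.8% of the drop from T0 to the mean late level was done at 1 h, on the log2(CPM + 2) scale, and their summed share went from 0.314% ± 0.0547 at T0 to 0.115% ± 0.0194 after 1 h, 0.0305% ± 0.00496 after 3 h and 0.0438% ± 0.0170 after 6 h (SD, n = 3).

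Below this line the members graded into one another. Another 9 members lay 0.5 to 1 below T0 at 1 h, among them proteins 5806 (-0.97), 2950000 (-0.79) and 3713 (-0.51) on the log2(CPM + 2) scale. The largest class, 41 members, lay within 0.5 of T0 at 1 h, and 8 members lay 0.5 or more above it. By direction alone 39 members were lower and 25 higher at 1 h than at T0. Quartiles of the 1 h minus T0 difference were -0.49 and 0.25 for the members and -0.49 and 0.40 for the 9447. Lying within 0.5 of T0 was thus common among all gene models too. All 1 h libraries lay below all T0 libraries in 11 of 64 members, which is 17.2% beside 14.0% of the 9447 gene models. They all lay above in 6 members, which is 9.38% beside 12.3%. Neither share of the members was far from that of the 9447.

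The members highest at 1 h relative to T0 were proteins 4946, 3015292 and 1406337. Protein 3015292 (3786 nt), the longest member, was at 560.4, 582 and 342 CPM at T0, at 961, 714 and 1178 CPM at 1 h, at 153, 195 and 151 CPM at 3 h and at 149, 156 and 122 CPM at 6 h. Protein 1406337 (956 nt) was at 383, 517 and 249 CPM at T0, at 769, 599 and 768 CPM at 1 h, at 195, 149 and 162 CPM at 3 h and at 146, 96.6 and 148 CPM at 6 h. In both, every 1 h library was above every T0 library and the late libraries lay below both times.

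None of the 3 passed the test at 1 h against T0 (edgeR quasi-likelihood, Benjamini-Hochberg). The log2 estimates were 1.84 (SE 0.66, adjusted p 0.113) for protein 4946, 1.02 (SE 0.31, adjusted p 0.0662) for protein 3015292 and 0.95 (SE 0.30, adjusted p 0.0733) for protein 1406337. Alternatives brought protein 4946 under 0.05 in 2 of 21 cases (adjusted p 0.0227 to 0.357), protein 3015292 in 5 (0.0130 to 0.264) and protein 1406337 in 2 (0.00977 to 0.251). By DESeq2, 9 members were called at 1 h (6 lower, 3 higher), which is 14.1% beside 11.5% of all gene models tested. Without T0 replicate 2, 1 h replicate 2 or 3 h replicate 2 the members called were 5 (7.81%), beside 11.9%, 5.08% and 7.58% of all in that order. Without 6 h replicate 2 they were 6 (9.38%), beside 6.90%. The 738 calls over all gene models also hung on single libraries: leaving out T0 replicate 1, 2 or 3 gave 342, 1432 or 316, and leaving out 1 h replicate 1 or 3 gave 319 or 233.

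**Figure D4:**
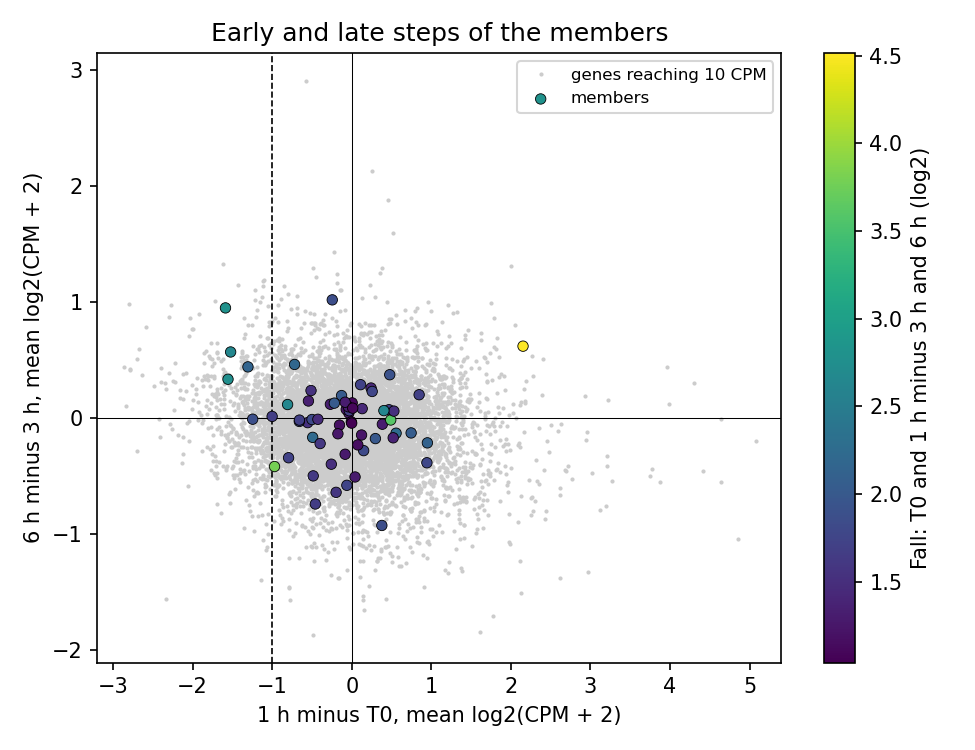
For each member (coloured by the size of its fall) the 1 h minus T0 difference is plotted against the 6 h minus 3 h difference, both in mean log2(CPM + 2), with the 9447 gene models that reached 10 CPM in grey; the dashed line at -1 marks members already lower at 1 h. Of the 64 members, 41 lie within 0.5 of 0 on the horizontal axis and 54 on the vertical axis, with protein 4946 far to the right.

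The members' 6 h level was compared with that at 3 h, a difference the rule limits but does not set. A gene model back at its early level at 6 h could not be a member, so a full return could not be seen here. No member was called in the edgeR quasi-likelihood test (0 of 64, smallest Benjamini-Hochberg adjusted p 0.996), beside 0% of all gene models tested, nor by DESeq2 or limma-voom. At an unadjusted p under 0.05 there were 3 members and 426 of all 11813 gene models, and DESeq2 called 8 of the latter. The members' edgeR log2 fold changes had a median of 0.09 and ran from -1.40 to 1.22, beside a median of -0.02 over all gene models. By mean log2(CPM + 2), 31 members were higher and 33 lower at 6 h than at 3 h, and 54 lay within 0.5. Quartiles of this difference were -0.17 and 0.13 for the members, beside -0.31 and 0.13 for the 9447 gene models that reached 10 CPM.

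The 2 members with the largest rise from 3 h to 6 h were proteins 2979544 and 3022294. Protein 2979544 (437 nt) was at 92.2, 227 and 103 CPM at T0, at 78.4, 119 and 137 CPM at 1 h, at 29.6, 15.7 and 20.9 CPM at 3 h and at 57.7, 26.0 and 61.5 CPM at 6 h. Its 6 h replicate 2 stayed within the 3 h range, and its edgeR log2 fold change of 1.22 (SE 0.41) had an unadjusted p of 0.00874 and an adjusted p of 0.996. For protein 3022294 the log2 estimate was 1.0001 (SE 0.45), unadjusted p 0.0411 and the same adjusted p, again with 6 h replicate 2 inside the 3 h range. Over the whole set, 6 h replicate 2 had the lowest summed share of all 12 libraries, 0.359%.

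Proteins 1651828 and 2204616 had the largest further drop in mean log2(CPM + 2), and neither passed the test. Protein 1651828 (421 nt) was at 10.4, 24.4 and 7.34 CPM at T0, at 20.1, 9.60 and 24.2 CPM at 1 h, at 4.25, 5.01 and 3.67 CPM at 3 h and at 3.58, 1.24 and 0 CPM at 6 h. Its 6 h values rest on 19, 6 and 0 reads. Protein 2204616 (1003 nt) was at 72.8, 35.0 and 83.2 CPM at T0, at 28.3, 57.6 and 48.4 CPM at 1 h, at 20.0, 14.2 and 26.1 CPM at 3 h and at 17.0, 24.6 and 2.24 CPM at 6 h. Its drop rests on 6 h replicate 3, since the other 6 h libraries lay inside the 3 h range.

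The comparisons that the rule used are given as counts, and nothing is read from them. Called lower by edgeR at an adjusted p under 0.05 were 56 of 64 members at 3 h against T0 (background 4.62%), 56 at 6 h against T0 (3.18%), 52 at 3 h against 1 h (2.05%) and 46 at 6 h against 1 h (2.21%). Their median log2 fold changes were -1.70, -1.74, -1.65 and -1.56, against medians of 0.03, -0.0045, 0.04 and 0.0034 over all gene models. These comparisons share libraries with each other. For 3 h against 1 h, leaving out 1 h replicate 3, 3 h replicate 1 or 3 h replicate 3 gave 27, 22 or 27 members. The share of all gene models called in either direction was then 1.38%, 1.43% or 1.44%, beside 3.95% with all libraries. For 6 h against 1 h, leaving out 1 h replicate 3 or 6 h replicate 1 gave 25 or 30 members. That share was then 1.91% or 3.52%, beside 4.92%.

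Just inside the threshold were proteins 2910411 and 3043479, whose smallest group difference was 1.006 and 1.007 on the log2(CPM + 2) scale. Protein 2910411 (1104 nt) was over the 4 times in order at 31.4 ± 11.1, 21.7 ± 10.1, 8.03 ± 1.69 and 9.03 ± 1.38 CPM (SD, n = 3), and protein 3043479 (2649 nt) at 33.2 ± 11.1, 36.8 ± 20.4, 15.1 ± 3.48 and 12.5 ± 3.06 CPM. Just outside were proteins 3055007 and 3040322, at 0.998 and 0.994. Protein 3055007 missed the threshold between T0 (15.6 ± 4.57 CPM) and 3 h (6.92 ± 2.61 CPM). Protein 3040322 missed it between 1 h (104 ± 16.4 CPM) and 6 h (50.8 ± 5.09 CPM). A further 23 gene models met the fold but had overlapping early and late libraries. The mirrored rule, with higher in place of lower, found 91 gene models, whose summed share went from 1.14% ± 0.189 at T0 and 1.35% ± 0.266 at 1 h to 4.91% ± 0.300 after 3 h and 4.89% ± 1.46 after 6 h (SD, n = 3).

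Length was not part of the rule. The members' gene models had a median length of 1032 nt (quartiles 728 and 1518, range 324 to 3786 nt), beside 1356 nt (quartiles 908 and 1947) for the 9447 that reached 10 CPM. Members of 500 nt or less were 8 of 64 (12.5%), beside 6.28% of the 9447, and members over 2000 nt were 7 (10.9%), beside 23.5%. These shares describe the set and were not tested. The slope of log2(CPM + 2) on log2 length ran from -0.284 to 0.314 in the early libraries and from -0.193 to 0.193 in the late ones, so the 2 ranges overlapped. With each library's trend on length removed, 57 of the 64 still met the rule and 13 others joined. Reads shared between gene models were rare in the set, with 56 members holding none and 2 holding more than 1%, at most 4.30%.

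**Figure D5:**
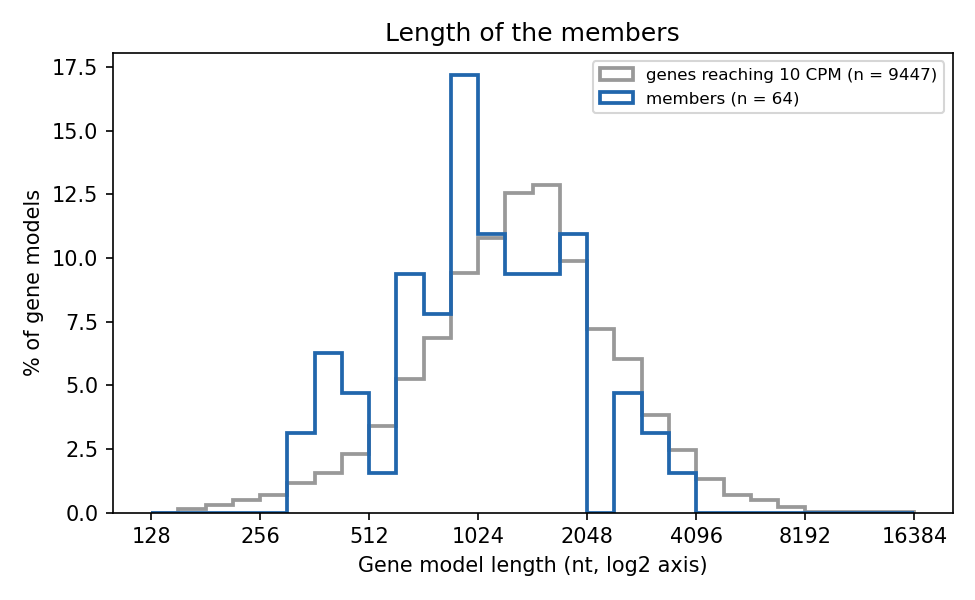
Length of the gene models in nt on a log2 axis, as a percentage of the 64 members (blue) and of the 9447 gene models that reached 10 CPM (grey). The members' median is 1032 nt and that of all is 1356 nt.

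Median spread between replicates of the members was close to that of all gene models reaching 10 CPM at T0, 1 h and 3 h, and larger at 6 h. The rule itself acts on spread, since it drops gene models whose early and late libraries overlap, and the difference was not tested. The SD of log2(CPM + 2) between 3 replicates had medians over the members of 0.45, 0.34, 0.26 and 0.39 for the 4 times in order, beside 0.44, 0.34, 0.28 and 0.32 over the 9447. Pooled over times, protein 3035765 (2560 nt), chosen for mention with its values known, had the smallest SD of the set, 0.15 (log2). It was at 508, 448 and 616 CPM at T0, at 659.7, 772 and 729.7 CPM at 1 h, at 183, 177 and 181 CPM at 3 h and at 201, 166 and 204 CPM at 6 h. After 4946 the most variable were proteins 2204616 (0.84) and 3019667 (0.70).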

How the data were processed

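The authors deposited a table per library that gives, per the file headers, read counts per gene model (unique and total) and RPKM. What aligner, counter, build or strand setting they used is not given in the sources read. The counts of total gene reads were used, and the deposited RPKM served only to recover gene lengths, known for 13120 of 13602 IDs. The members, their rule and the lists named here were chosen with earlier results of these data known. Named members were those highest early, falling most, extreme in either step not set by the rule, nearest the threshold, or called. No table pairs IDs with names, so gene lists planned by annotation were not tested.

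Tests used R 4.3.3 with edgeR 4.0.16 (TMM, filterByExpr, quasi-likelihood, group as the only term, 8 residual degrees of freedom, Benjamini-Hochberg over 11813 gene models), and alternatives used DESeq2 1.42.0 and limma-voom (limma 3.58.1). SEs are back-calculated from the F statistic. The main edgeR fit kept the dominant pair in its counts, unlike the CPM levels. With the pair left out, 718 gene models (6.05%) and 3 members (4.69%) were called at 1 h against T0. With it kept, these were 738 (6.25%) and 3 (4.69%). CPM and log2(CPM + 2) were computed in Python 3.11.15 with pandas 2.3.3. Of the fits, only the edgeR one was run on simulated data, for 1 h against T0 and 6 h against 3 h. Total gene reads ran from 2137932 to 10697807 per library, and limits from counts cover counting error only. Cultures of a time are biological replicates per the labels, and no pair agreed within sampling noise (lowest chi-square per degree of freedom 7.90). Same-numbered replicates deviated together between T0 and 3 h (r 0.371 to 0.586 across genes), but T0 replicate 1 with 3 h replicate 3 also gave 0.419. There 54 members were called with the replicate block (beside 8.09% of all gene models) and 56 without (9.59%). Same-numbered replicates did not deviate together between T0 and 1 h (-0.378 to 0.172) or 3 h and 6 h (-0.0788 to 0.107). Between T0 and 1 h, T0 replicate 2 with 1 h replicate 3 gave 0.454.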

Additional observations from a re-analysis of the deposited data

How the results depend on the processing

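The 64 members became 21 at a log2 difference of 1.5, 13 with the dominant models kept in the total, 102 with T0 and 1 h replicates 2 and 3 left out together (chosen after seeing the data; 49 of the 64 among them), and 54 to 82 with 1 library left out. The other settings of the rule gave 51 (TMM scaling) to 87 (overlap allowed), and unique reads kept 63 of the 64. The median fall of 1.69 was 1.12 with the dominant models kept, which moved the median of all gene models that reached 10 CPM from 0.03 to -0.50, and 1.56 to 1.73 otherwise. Of 320 values of the fall of 16 named members, 13 moved by more than the replicate SD, 11 of them in that setting, and the lowest was 0.60. Gene models called at 1 h numbered 1356 by DESeq2, 472 with the 2 groups alone and 233 to 1432 with 1 library left out. Members called at 1 h numbered 9 by DESeq2 (14.1%, beside 11.5% of all gene models tested) and 5 by limma-voom (7.81%, beside 6.18%). With reads thinned to 729521 per library they numbered 6 of 60 tested (10%, beside 7.73%). With 1 library left out they numbered 2 to 6 (3.125% to 9.38%, beside 1.93% to 11.9%). At 6 h against 3 h, DESeq2 called 8 gene models and the fits without 1 library 0 to 1, and no member was called in any of these. The data do not bear out the replicate block for these comparisons. With it, 614 gene models (5.12%) and 3 members (4.69%) were called at 1 h, and 0 at 6 h against 3 h. The cause of these changes was not tested. In the shallowest early library, a count of 0 allows a level of up to 4.11 CPM.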
